A study of Mus musculus with 8 samples.

Results

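C-type lectin receptors are membrane proteins of myeloid cells that read carbohydrates, glycolipids and other molecules of microbes and of damaged host cells. The 10 receptor genes described here, Clec4a1, Clec4a2, Clec4a3, Clec4d, Clec4e, Clec4n, Clec5a, Clec7a, Clec10a and Clec12a, were chosen by name and found by Ensembl identifier among the 52636 identifiers of the count table. All 10 passed the filter on low counts and were among the 13847 genes tested. The libraries came from primary microglia of wild-type C57BL/6 mice (C57BL/6N pups by the study's methods), shaken off mixed glial cultures of newborn brains and kept in medium with 10% serum and 10 ng/ml CSF-1, the survival factor that both groups received. The 4 libraries of the LPS group came from cells given 5 µg/ml lipopolysaccharide (LPS), a bacterial ligand of Toll-like receptor 4, for 24 h, and the 4 libraries of the vehicle group from cells given vehicle for the same time. Whether libraries of the same number share a culture or pups is not given in the sources used here.

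The receptors fall into few signalling types. Mincle (Clec4e), MCL (Clec4d) and Dectin-2 (Clec4n) have no signalling motif of their own and pass signals through the Fc receptor gamma chain (Fcer1g). MDL-1 (Clec5a) uses the adaptors DAP12 (Tyrobp) and DAP10 (Hcst), and Dectin-1 (Clec7a) carries its own short activating motif, the hemITAM. These activating receptors meet at the kinase Syk and, beyond it, at a complex of Card9, Bcl10 and Malt1 that turns on NF-κB. DCIR1 (Clec4a2) and MICL (Clec12a) carry an inhibitory motif, the ITIM, that recruits phosphatases, while DCIR4 (Clec4a1) and DCIR3 (Clec4a3) are relatives of DCIR1 without it. MGL1 (Clec10a) binds galactose and N-acetylgalactosamine and is a familiar marker of alternatively activated macrophages. In the brain, Clec7a is best known as a gene of the disease-associated state of microglia.

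Library totals ranged from 20071921 to 30604447 counts. Levels are given in CPM, read counts relative to a library size scaled with TMM, a normalization to the bulk of genes, whose factors ranged from 1.21 to 1.32 in the vehicle group and from 0.70 to 0.83 in the LPS group. The change after LPS reached most of the transcriptome. By edgeR's quasi-likelihood test at an adjusted p of 0.05, 64.1% of all tested genes differed, 30.3% being higher and 33.8% lower after LPS, and with library totals alone, without TMM factors, the split was 14.4% higher and 61.1% lower. The median log2 fold change of all genes was -0.11 and moved by -0.68 with library totals and by -0.16 with upper quartile scaling, so each change below is relative to the scaling used. Of 10 microglial markers all were tested, none was called higher and 8 were lower after LPS, their summed level being 5021 to 6990 CPM in vehicle and 913 to 1056 CPM in LPS libraries. Markers of other cells moved as well. Of 10 markers of the oligodendrocyte lineage 7 were tested and 4 were lower, with sums of 96.4 to 161 CPM in vehicle and 21.95 to 37.0 CPM in LPS libraries. Of 6 endothelial markers 3 were tested and 3 were higher, with sums of 31.04 to 73.4 and 163 to 254 CPM, while no library held more than 3 counts of the defining markers Cldn5, Tek or Esam. The astrocyte, dendritic cell, monocyte, fibroblast and lymphoid lists each summed to at most 124 CPM in any library. All but the astrocyte sum were higher in every LPS library than in any vehicle library. The monocyte sum was 1.77 to 3.80 CPM in vehicle and 26.6 to 69.5 CPM in LPS libraries. The astrocyte sums overlapped, and of 8 tested astrocyte markers 1 was higher and 3 were lower. The part of these cells in the results was not tested. In RNA of whole cultures, fewer cells of a type and less RNA per cell cannot be told apart.

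Against that background, 3 of the 10 receptors rose (Clec4a1, Clec4d, Clec4e), 3 fell (Clec7a, Clec10a, Clec12a) and 4 did not pass the test (Clec4a2, Clec4a3, Clec4n, Clec5a). The shares, 30.0% higher and 30.0% lower, are close to those of all tested genes, and the median log2 fold change of the 10 receptors was -0.12. Mincle had the largest rise of the 10, 21.7-fold, and Dectin-1 fell 6.56-fold. In 5 of the 10 receptors the CPM of the 2 groups did not overlap, as in 60.2% of all tested genes. The plot of CPM by library shows the values behind these calls.

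**Figure D1:**
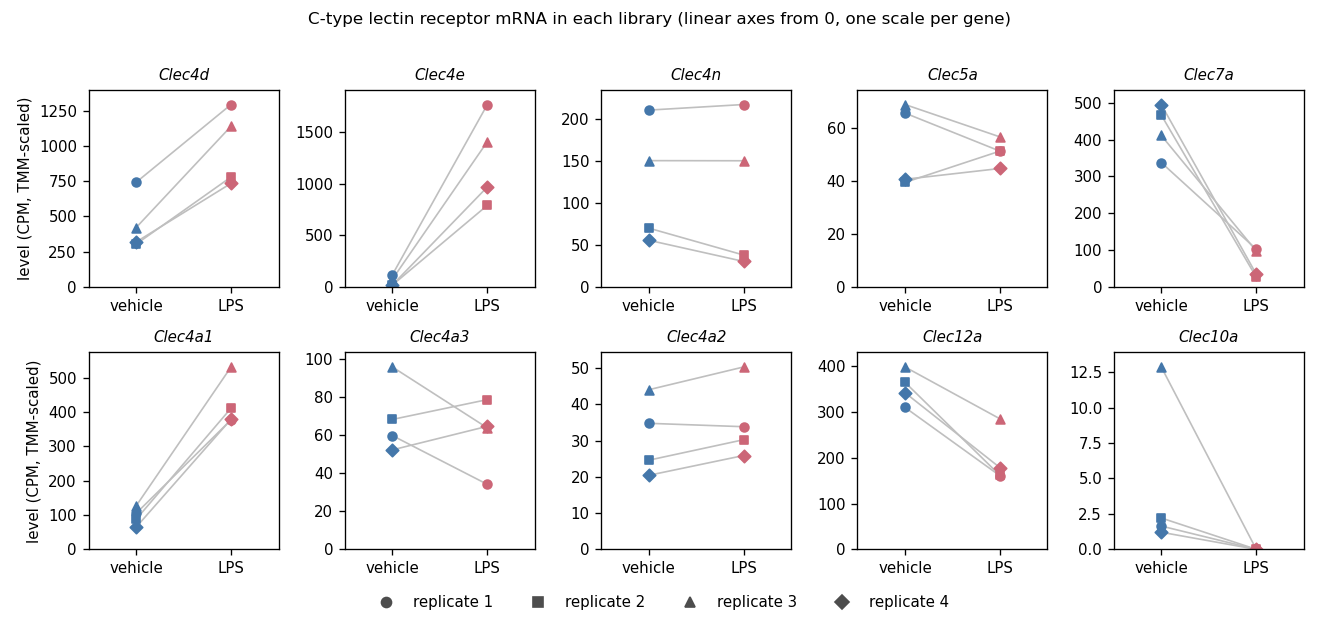
Level of each of the 10 receptor mRNAs in every library (y axis, TMM-scaled CPM, linear from 0 with a scale per gene), with vehicle libraries at the left and LPS libraries at the right of each panel. Marker shapes give the replicate number of the labels, and lines join libraries of the same number. Clec4e and Clec4a1 are higher in all 4 LPS libraries than in any vehicle library, Clec7a, Clec12a and Clec10a are lower in all 4, and the 2 groups overlap in the other 5 panels.

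Clec4e (ENSMUSG00000030142) encodes Mincle, which binds the mycobacterial glycolipid trehalose dimycolate and the nuclear protein Sap130 released by dying cells. Its level was 118, 17.5, 74.1 and 18.4 CPM in vehicle replicates 1 to 4 and 1771, 792, 1410.3 and 971 CPM in LPS replicates 1 to 4. Every LPS library lay far above every vehicle library, while the vehicle libraries themselves spread over a 6.70-fold range. Mincle mRNA changed by a log2 fold change of 4.44 ± 0.67 (SE, edgeR, adjusted p = 2.8e-04), and without vehicle replicate 1 it was 5.09.

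Clec4d (ENSMUSG00000030144) encodes MCL, the partner with which Mincle forms a receptor complex. Vehicle libraries held 741, 302, 419.7 and 318 CPM and LPS libraries 1293, 779, 1139 and 734 CPM. The highest vehicle library, replicate 1, exceeded the lowest LPS library, replicate 4, so the groups overlapped, although the LPS library was higher within all 4 replicate numbers. MCL mRNA changed by a log2 fold change of 1.15 ± 0.31 (SE, edgeR, adjusted p = 0.0092). With library totals alone it was 0.47 and did not pass the test (edgeR, adjusted p = 0.17), while Clec4e and Clec4a1 passed it with either scaling.

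Levels of different genes are set side by side here only per kilobase, in the first place of all annotated exons. For 100 units of Clec4d there were 5.11, 1.87, 5.68 and 1.86 units of Clec4e in vehicle replicates 1 to 4. In the LPS replicates the ratio was 44.1, 32.8, 39.9 and 42.6 units. The LPS libraries lay within a narrow band in this ratio, well above the vehicle libraries. The size of the ratio depends on the length taken for each gene, and per kilobase of mean coding transcript it was 4.71 to 14.4 units in vehicle and 82.9 to 112 units in LPS libraries.

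Clec4a1 (ENSMUSG00000049037) encodes DCIR4. It stood at 105, 87.1, 126 and 64.2 CPM in the vehicle and at 377, 411, 531 and 379 CPM in the LPS replicates. The groups did not overlap, and the replicate numbered 3 was the highest in both. This gave a log2 fold change of 2.15 ± 0.22 (SE, edgeR, adjusted p = 2.1e-05).

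Clec7a (ENSMUSG00000079293) encodes Dectin-1, the receptor for fungal beta-glucan. Vehicle libraries held 338, 466, 411 and 495 CPM and LPS libraries 102, 26.4, 97.3 and 34.5 CPM. All LPS libraries were below all vehicle libraries, and replicates 1 and 3, the lower ones in the vehicle group, were the higher ones in the LPS group. Dectin-1 mRNA changed by a log2 fold change of -2.71 ± 0.43 (SE, edgeR, adjusted p = 3.9e-04). The difference between the LPS and the vehicle library of the same number ran from -4.14 in replicate 2 to -1.72 in replicate 1 on the log2 scale. The annotation used here lists Clec7a as a polymorphic pseudogene, a class for genes that are coding in some strains.

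Clec12a (ENSMUSG00000053063) encodes MICL, an inhibitory receptor that recognizes uric acid crystals. Levels were 310.2, 365, 399 and 342 CPM in vehicle and 161, 162, 285 and 178 CPM in LPS libraries. The groups did not overlap, and LPS replicate 3 stood above the other LPS libraries. MICL mRNA thus had a log2 fold change of -0.85 ± 0.20 (SE, edgeR, adjusted p = 0.0037), the smallest of the 6 called changes.

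Clec10a (ENSMUSG00000000318), the gene of MGL1, had 47, 64, 406 and 34 counts in vehicle replicates 1 to 4 and 0 counts in each LPS library. In CPM the vehicle libraries held 1.64, 2.21, 12.9 and 1.21. Taking 3 counts in each LPS library as the floor, Clec10a was at least 27.8-fold lower after LPS, and at least 10.5-fold lower without vehicle replicate 3 (edgeR, adjusted p = 0.0031 with all libraries and 3.6e-04 without it). The floor covers counting error only. Vehicle replicate 3 was also the vehicle library with the most Mrc1, at 940.1 CPM against 523 to 602 CPM in the others, and the highest summed level of 10 border macrophage markers, 4599 CPM against 3058 to 3642 CPM. The summed level of 10 microglial markers was highest in that library as well, at 6990 CPM against 5021 to 6107 CPM. In the border macrophage list, Folr2 was highest in vehicle replicate 2 and Cd209f in vehicle replicate 1. Of the 10 border macrophage markers 7 were tested, 2 were higher (Siglec1 and Cbr2) and 4 lower (Mrc1, Pf4, F13a1 and Stab1) after LPS. The sum of the 10 in LPS libraries was 2009 to 4033 CPM, and 1 of the 10, Lyve1, had at most 3 counts in every library. Their part in the Clec10a result was not tested. Reads from Clec10a can also be lost or shared, since 9.02% of its 50-base windows occur in other genes, mostly in its neighbor Mgl2, which reached at most 15 counts in any library.

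For the 4 receptor genes that did not pass the test, values are given without a direction. Clec4n (ENSMUSG00000023349) encodes Dectin-2, a receptor for fungal mannans. Its level was 210.3, 70.0, 150.2 and 55.5 CPM in vehicle and 217, 37.9, 150.1 and 30.3 CPM in LPS libraries. Replicates 1 and 3 hardly differed between the groups, whereas in replicates 2 and 4 the LPS library was lower by 0.88 and 0.87 on the log2 scale. The log2 fold change was -0.16 ± 0.65 (SE, edgeR, adjusted p = 0.84), and with the replicate number as a block it was -0.42 ± 0.19 (SE, adjusted p = 0.085).

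Clec5a (ENSMUSG00000029915) encodes MDL-1, a receptor that binds flaviviruses. It stood at 65.5, 39.3, 68.7 and 40.5 CPM in vehicle and at 51.1, 51.2, 56.5 and 44.6 CPM in LPS libraries, so all LPS libraries lay inside the vehicle range. The log2 fold change was -0.07 ± 0.19 (SE, edgeR, adjusted p = 0.75).

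Clec4a3 (ENSMUSG00000043832), the gene of DCIR3, had 59.8, 68.3, 95.8 and 52.3 CPM in vehicle and 34.1, 78.7, 63.8 and 64.7 CPM in LPS libraries. The groups overlapped, with LPS replicate 1 the lowest of all 8. The log2 fold change was -0.20 ± 0.26 (SE, edgeR, adjusted p = 0.53). With library totals alone both Clec5a (-0.75, adjusted p = 0.0035) and Clec4a3 (-0.87, adjusted p = 0.0099) were called lower by edgeR.

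Clec4a2 (ENSMUSG00000030148), the gene of the inhibitory DCIR1, held 34.8, 24.6, 44.0 and 20.4 CPM in vehicle and 33.8, 30.3, 50.3 and 25.9 CPM in LPS libraries. The replicate number ordered these libraries in the same way in both groups, from 3 through 1 and 2 to 4. The log2 fold change was 0.18 ± 0.27 (SE, edgeR, adjusted p = 0.57) and -0.51 with library totals alone (edgeR, adjusted p = 0.070). Of its 50-base windows 6.83% occur in other genes, among them Clec4a4 and Clec4b1.

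**Figure D2:**
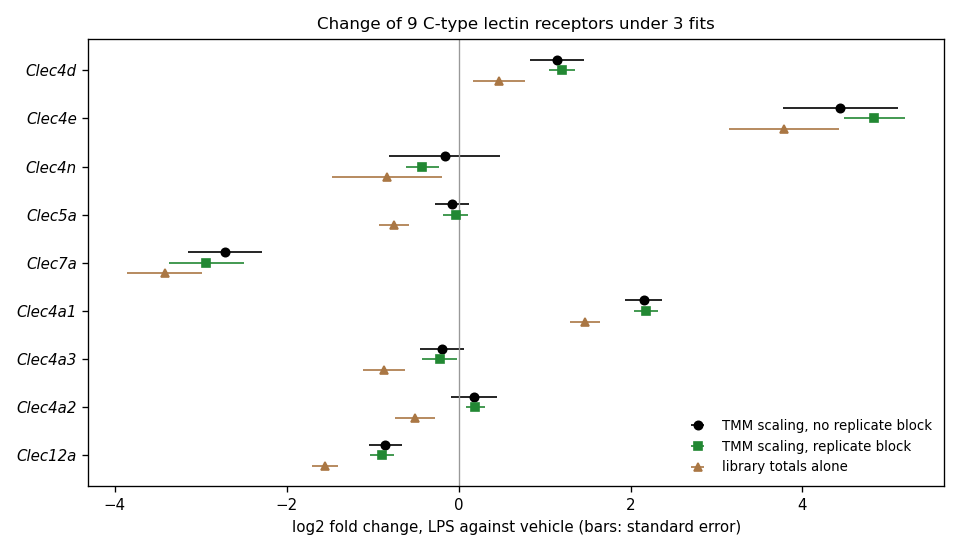
Log2 fold change of LPS against vehicle (x axis) for 9 receptors, with bars for the standard error, under TMM scaling without and with the replicate number as a block and with library totals alone. Clec10a is left out because all its LPS libraries are at 0. Library totals shift every receptor to the left, Clec4d from 1.15 to 0.47 and Clec5a from -0.07 to -0.75.

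On the scale of all annotated exons MCL was first in both groups. In vehicle libraries the order was Clec4d with 278 ± 127 CPM per kilobase (SD, n = 4), Clec7a with 162 ± 26.3, Clec4n with 85.6 ± 51.0, Clec12a with 64.1 ± 6.74, Clec4a1 with 61.3 ± 16.9 and Clec4a3 with 52.0 ± 14.3 CPM per kilobase. Clec5a, Clec4e and Clec4a2 followed at 13.9 ± 4.10, 11.5 ± 9.73 and 10.6 ± 3.62, and Clec10a was last at 1.55 ± 1.93 CPM per kilobase (SD, n = 4). Clec4d was above Clec7a in 4 of 4 vehicle libraries. Neighbors in this order that changed places between libraries were Clec4n and Clec12a, and Clec12a and Clec4a1 (2 of 4 each way), Clec7a above Clec4n and Clec5a above Clec4e (3 of 4 each), and Clec4e above Clec4a2 (1 of 4).

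After LPS the order per kilobase was Clec4d with 617 ± 171, Clec4a1 with 272 ± 46.7 and Clec4e with 249 ± 88.8 CPM per kilobase (SD, n = 4). Clec4n at 76.6 ± 63.8, Clec4a3 at 45.5 ± 14.1, Clec12a at 35.5 ± 10.8 and Clec7a at 24.7 ± 15.3 CPM per kilobase came next, ahead of Clec5a and Clec4a2 at 13.2 ± 1.27 and 11.99 ± 3.65. Clec4d was again first in 4 of 4 libraries, and Clec4a1 was above Clec4e in 3 of 4. From Clec4n to Clec4a2 each receptor was above the next in only 2 or 3 of 4 libraries. On this scale Clec4e went from rank 8 to rank 3 and Clec7a from rank 2 to rank 7. Per kilobase of mean coding transcript Clec4e went from rank 7 to rank 1 and Clec7a again from 2 to 7, and Clec4d was above Clec7a in 2 of 4 vehicle libraries.

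The 10 receptors together summed to 741 ± 175 CPM per kilobase in vehicle and 1346 ± 347 in LPS libraries (SD, n = 4). As a share of this sum, Mincle went from 1.38% ± 0.93 to 18.2% ± 2.58, and Dectin-1 from 23.4% ± 8.54 to 1.70% ± 0.70 (SD, n = 4). MCL held 36.4% ± 7.96 in vehicle and 45.7% ± 1.83 in LPS libraries. By signalling type, the Fc receptor gamma chain partners Clec4d, Clec4e and Clec4n held 48.6% ± 12.2 and 69.0% ± 6.67 of the sum, in ranges that overlapped. The ITIM receptors Clec4a2 and Clec12a held 10.5% ± 2.31 in vehicle and 3.60% ± 0.82 in LPS libraries, without overlap (SD, n = 4). These shares rest on the summed length of all annotated exons, 4965 bases for Clec4e. With the mean length of its coding transcripts, 1624 bases, Clec4e held 34.5% and Clec4d 34.3% after LPS, with Clec4e above in 3 of 4 libraries. Per mean coding transcript the ITIM receptors held 20.7% in vehicle and 7.07% in LPS libraries. On that length the Fc receptor gamma chain partners held 40.0% (30.6% to 58.1%) in vehicle and 73.4% (68.3% to 82.0%) in LPS libraries, without overlap.

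**Figure D3:**
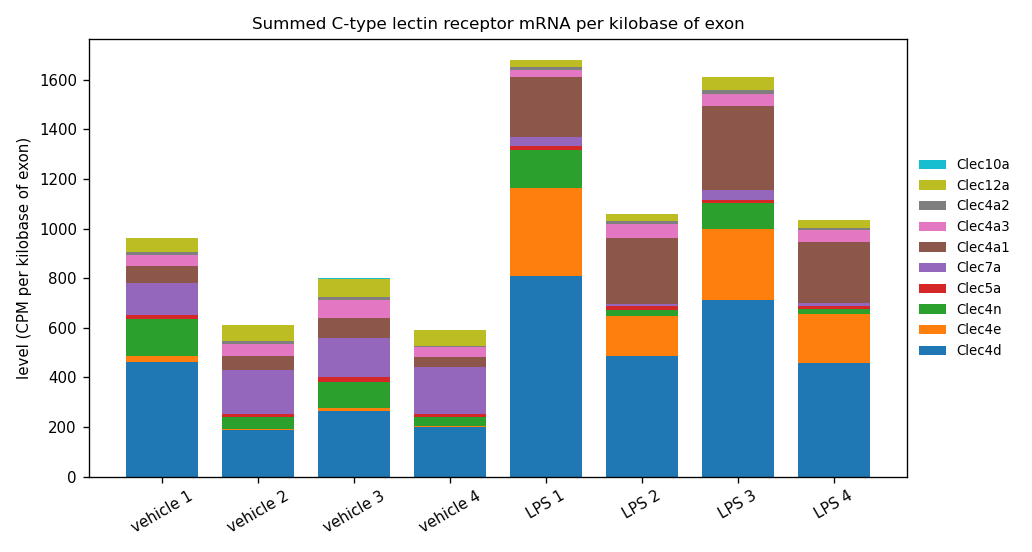
Stacked levels of the 10 receptors in each library (y axis, CPM per kilobase of exon, linear from 0). Each color is a receptor. The Clec7a segment shrinks and the Clec4e and Clec4a1 segments widen from vehicle to LPS libraries, and within both groups the bars of replicates 1 and 3 are the tallest.

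Of the 10 receptor genes, 9 lie on chromosome 6 (GRCm38). Clec4a1 (chr6:122921848-122934619, plus strand), Clec4a3, Clec4a2, Clec4n (chr6:123229843-123247021, plus strand), Clec4d (chr6:123262111-123275265, plus strand) and Clec4e (chr6:123281789-123289870, minus strand) form the Dectin-2 cluster. Clec12a (chr6:129342691-129365303, plus strand) and Clec7a (chr6:129461591-129472779, minus strand) belong to the Dectin-1 cluster. Clec5a (chr6:40574894-40585821, minus strand) stands apart, and Clec10a is on chromosome 11 (chr11:70156197-70170834, plus strand). No exon of the 10 genes overlapped an exon of another annotated gene.

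Within the Dectin-2 cluster the genes that rose were not a contiguous block. Clec4a1, first in the cluster, rose 4.44-fold, its neighbor Clec4a3 did not pass the test, and at the far end Clec4d and Clec4e, which face each other tail to tail, rose while the adjacent Clec4n did not pass it. Between Clec4a3 and Clec4a2 lies Clec4b1, the gene of a dendritic cell receptor, with at most 71 counts in vehicle and 1 in LPS libraries (edgeR, adjusted p = 7.2e-05). Of all tested genes 30.3% were higher and 33.8% lower. Of 31 other protein-coding genes between or next to the receptors, 10 were tested, 4 were higher and 3 lower after LPS. Outside the lectin family these were the complement receptor C3ar1 (log2 fold change 0.83, adjusted p = 0.0096, and 0.13 with library totals) and Foxj2 (0.39, adjusted p = 0.020), both higher with TMM scaling, and Slc16a13 (-1.37, adjusted p = 2.6e-04) and the autophagy gene Gabarapl1 (-0.42, adjusted p = 0.026), both lower by edgeR. Foxj2 was called lower with library totals (-0.29, edgeR, adjusted p = 0.046) and lost its call with upper quartile scaling or without LPS replicate 2 (adjusted p = 0.096 and 0.052). Gabarapl1 lost its call without vehicle replicate 1 or 4 (edgeR, adjusted p = 0.075 and 0.061). In the Dectin-1 cluster Cd69, a lymphocyte activation antigen, rose from 9.11 ± 5.84 to 286 ± 138 CPM (SD, n = 4) and Clec2d rose with it (log2 fold change 1.10, edgeR, adjusted p = 5.3e-05). Both lie to the left of Clec12a, and the 4 lectin genes between Clec12a and Clec7a were not tested.

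**Figure D4:**
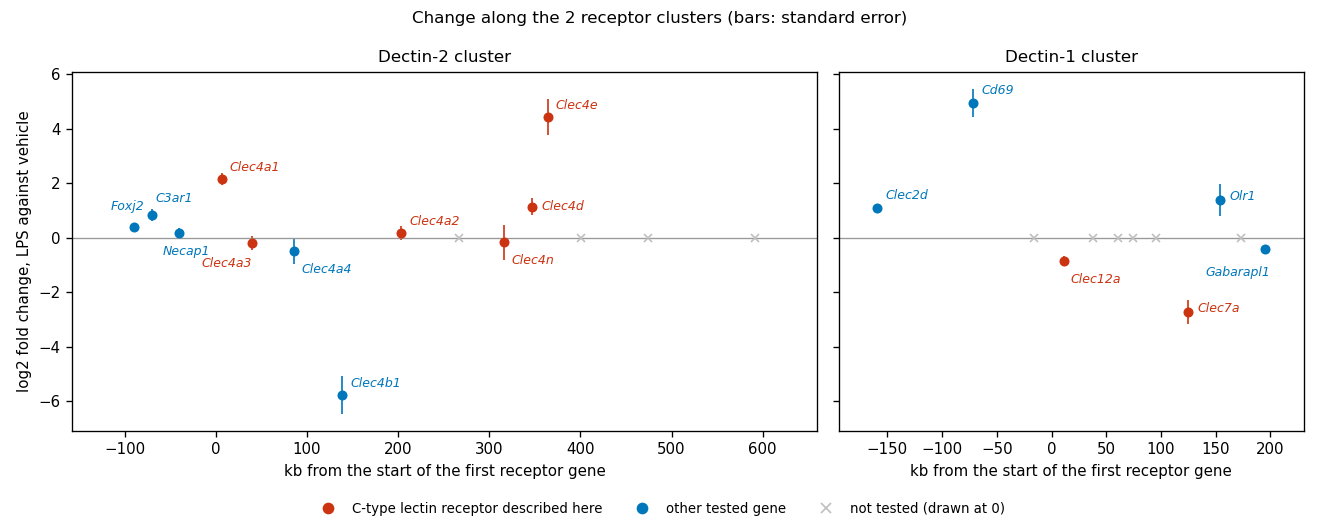
Log2 fold change of LPS against vehicle (y axis, bars are standard errors) along the 2 receptor clusters of chromosome 6, by distance in kb from the start of the first receptor gene. Red points are receptors described here, blue points other tested genes and gray crosses untested genes drawn at 0. In the left panel Clec4e at 4.44 stands beside Clec4d at 1.15 and Clec4n at -0.16, and in the right panel Clec12a and Clec7a lie below 0 and Cd69 at 4.97 above.

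RefSeq promoters (GRCm38.p6) were at hand for 8 of the 10 receptors, all but Clec4n and Clec10a. The 250 bases before the start site are shown for the 3 receptors that rose and for Clec7a, the largest fall with a promoter. Motifs were sought in these windows and in those of the other receptors with a promoter. Capitals mark the core of the PU.1 motif, GAGGAA or its reverse complement, and in Clec4e also a C/EBP motif, TTGCNNAA on either strand. PU.1 is the lineage factor of myeloid cells and C/EBP factors act beside it. The windows are chr6:123289872-123290121 on the minus strand for Clec4e, chr6:123261857-123262106 on the plus strand for Clec4d, chr6:122921598-122921847 on the plus strand for Clec4a1 and chr6:129472780-129473029 on the minus strand for Clec7a.
Clec4e: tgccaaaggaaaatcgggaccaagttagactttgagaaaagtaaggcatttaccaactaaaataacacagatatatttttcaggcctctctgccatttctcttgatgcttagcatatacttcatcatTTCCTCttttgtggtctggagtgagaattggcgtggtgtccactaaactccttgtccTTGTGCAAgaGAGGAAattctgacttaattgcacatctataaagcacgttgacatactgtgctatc
Clec4d: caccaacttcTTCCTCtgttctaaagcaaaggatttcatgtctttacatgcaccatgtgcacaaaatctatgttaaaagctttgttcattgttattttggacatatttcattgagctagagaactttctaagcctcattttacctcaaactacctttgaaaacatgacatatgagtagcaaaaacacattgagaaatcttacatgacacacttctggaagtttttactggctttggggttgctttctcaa
Clec4a1: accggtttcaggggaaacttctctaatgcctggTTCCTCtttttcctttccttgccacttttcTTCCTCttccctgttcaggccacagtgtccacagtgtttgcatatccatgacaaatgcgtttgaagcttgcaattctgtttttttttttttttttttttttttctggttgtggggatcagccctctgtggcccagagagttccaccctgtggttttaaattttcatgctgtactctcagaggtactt
Clec7a: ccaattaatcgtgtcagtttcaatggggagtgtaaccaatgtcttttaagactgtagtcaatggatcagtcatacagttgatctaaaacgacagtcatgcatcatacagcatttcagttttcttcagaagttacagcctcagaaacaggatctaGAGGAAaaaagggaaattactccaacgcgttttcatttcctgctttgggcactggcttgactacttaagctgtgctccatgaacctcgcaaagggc

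The core GAGGAA occurred on either strand in 7 of the 8 receptors with a promoter, Clec4a2 being without it, and in 23.3% of all 32851 promoters of this length. It thus stood before receptors that rose, that fell and that did not pass the test. A receptor was counted when any of its promoters matched, whereas the percentages here are of single promoters. Clec4a3 and Clec7a have a further promoter each, and that of Clec4a3 at chr6:122952265-122952514 lacked the core. The windows of Clec4a2 (chr6:123122440-123122689) and Clec12a (chr6:129349994-129350243) precede RefSeq starts but lie inside the gene spans of GENCODE. They thus do not precede the first annotated start of these genes. The C/EBP letters were found in Clec4e, 66 bases before the start and close to a PU.1 core at 56 bases, and in Clec12a, and in 9.56% of all promoters. The AP-1 motif TGANTCA was found in Clec12a alone among the receptors and in 6.75% of all promoters. Neither the core of the interferon-stimulated response element (2.98% of all promoters) nor the NF-κB consensus (3.90%) matched in any window of the 8 receptors. A match here is a run of letters and not a measured binding site.

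The spread between libraries of one group was wide for some receptors. Over 8382 well-expressed genes the within-group SD of log2 CPM had a median of 0.13 in vehicle and 0.23 in LPS libraries, and 90% of them lay below 0.37 and 0.51. For Clec4e it was 1.40 and 0.52, for Clec4n 0.91 and 1.42, for Clec4d 0.59 and 0.40 and for Clec7a 0.24 and 1.01. By contrast Clec12a in the vehicle group, with an SD of 0.15, was near the median of that group, and Clec5a in the LPS group, with 0.14, was below the median of its group.

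Part of this spread had the same order of libraries in both groups. In each, replicates 1 and 3 were the libraries with the higher levels for Clec4a2, Clec4d, Clec4e and Clec4n, and the plot of deviations from the group mean shows this order. It did not hold in both groups for the other receptors. The order was picked out after the values were seen, and the share of all genes that show it is not given. In the fit with the replicate number as a block, edgeR's test of the number itself across both groups was passed by 0.195% of all tested genes (27 of 13847), and among the 10 receptors by Clec4n (adjusted p = 0.049). For Clec4a2 and Clec4d that edgeR test gave adjusted p = 0.12 and 0.15, and for Clec4e 0.20. With the block, the SE of Clec4d fell from 0.31 to 0.15 and that of Clec4e from 0.67 to 0.36, and the same 6 receptors were called, 3 higher and 3 lower, against 65.3% of all genes tested in that fit, 29.7% higher and 35.6% lower. The summed level of 10 neutrophil markers had the same order of libraries, at 13.9, 2.11, 5.35 and 2.09 CPM in vehicle and 583, 130, 262 and 141 CPM in LPS replicates 1 to 4. Nearly all of this sum was 1 gene, the collagenase gene Mmp8, with 13.7, 1.93, 5.26 and 1.99 CPM in vehicle and 580.1, 129, 261 and 141 CPM in LPS libraries, the only one of the 10 that was tested, and it rose. Of the others, 8 had at most 3 counts in every library, including Ly6g, Mpo and Elane. The remaining marker, Camp, had at most 3 counts in vehicle and at most 50 in LPS libraries, where it stood at 2.99, 0.33, 0.51 and 0.32 CPM in replicates 1 to 4. The part of other cells in this order was not tested.

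**Figure D5:**
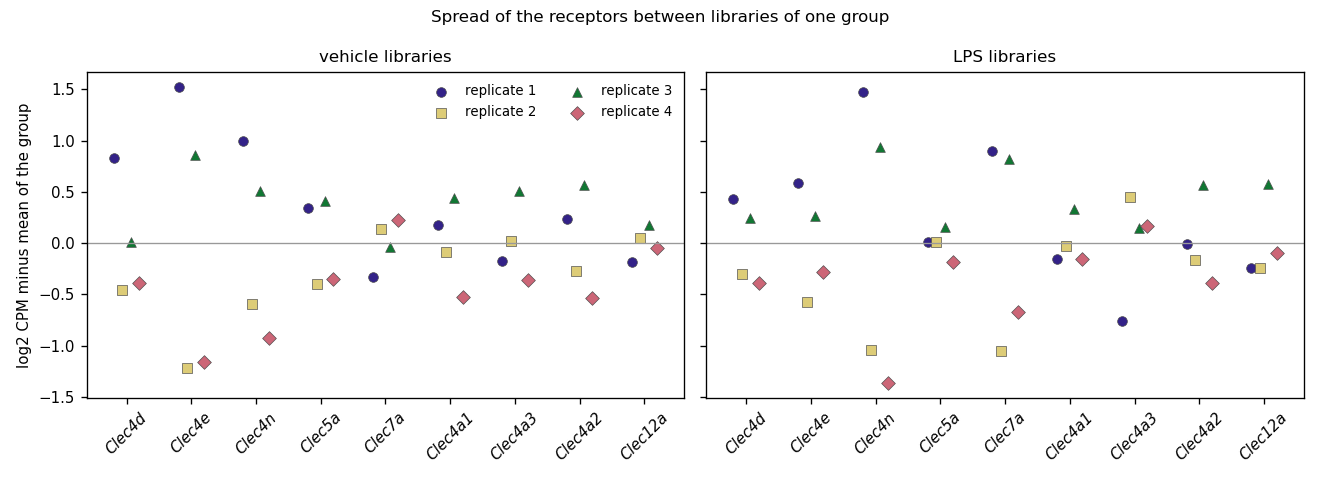
Deviation of each library from the mean of its group (y axis, log2 CPM) for 9 receptors in vehicle libraries (left) and LPS libraries (right). Marker shapes and colors give the replicate number. Replicates 1 and 3 lie above replicates 2 and 4 in both panels for Clec4d, Clec4e, Clec4n and Clec4a2, and for Clec7a they lie below in the left panel and above in the right.

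Other genes with nearly the same profile over the 8 libraries were sought by the smallest root mean square difference of centred log2 CPM among 12419 genes. The nearest to Clec12a was Gng2 (0.057 on the log2 scale), the nearest to Clec4a1 the chemokine gene Ccl9 (0.13) and the nearest to Clec4d the long-chain acyl-CoA synthetase gene Acsl1 (0.12). Clec4e was closest to the paired immunoglobulin-like receptor genes Pilrb2 (0.26) and Pilra (0.33), which carried log2 fold changes of 4.57 and 4.77. Clec7a was closest to Fam92a (0.25). The receptors farthest from their nearest genes were Clec10a, at 0.66 from Rapsn, and Clec4n, at 0.46 from Atrnl1.

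The rest of the lectin receptor family was mostly below the filter on low counts in these cells. Of 50 other genes for proteins with C-type lectin domains, 38 did not pass it and 12 were tested. Of the 12, 4 were higher and 4 lower after LPS (33.3% each way), close to the 30.3% and 33.8% of all tested genes. The median log2 fold change of the 12 was -0.25. Besides Cd69 (log2 fold change 4.97, adjusted p = 2.6e-05) and Clec2d, the endocytic receptor Ly75 (DEC-205, 3.04, adjusted p = 0.0069, 3.96 without vehicle replicate 1) and the phospholipase A2 receptor Pla2r1 (1.80, adjusted p = 0.0022) rose by edgeR. The mannose receptor Mrc1 fell from 650 ± 197 to 38.8 ± 6.63 CPM (SD, n = 4, edgeR adjusted p = 8.7e-07), and Klrg2 (-2.10, adjusted p = 8.8e-04), Clec4b1 and langerin (Cd207) fell too. Both Clec4b1 and Cd207 had at most 2 counts in each LPS library. Ly75 was low as well, with a mean of 0.30 CPM in vehicle and 2.49 CPM in LPS libraries (at most 21 and 94 counts). Klrg2 had at most 67 counts in vehicle and 11 counts in LPS libraries.

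The partners through which the receptors signal did not move in one direction. The adaptor of Mincle, MCL and Dectin-2, Fcer1g, rose from 529 ± 55.2 to 1642 ± 118 CPM (SD, n = 4), a log2 fold change of 1.63 ± 0.13 (SE, edgeR, adjusted p = 5.4e-06). The adaptors of MDL-1 fell, Tyrobp from 899 ± 25.2 to 431 ± 50.3 CPM (SD, n = 4, log2 fold change -1.06, edgeR adjusted p = 5.1e-05) and Hcst from 3.33 ± 0.39 to 2.15 ± 0.28 CPM (-0.63, adjusted p = 0.021). The call for Hcst was lost without vehicle replicate 2 or 3 (edgeR, adjusted p = 0.069 and 0.079).

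Over all 37 genes of the signalling list, every one was tested, 21 were higher (56.8%) and 10 lower (27.0%) after LPS, against 30.3% and 33.8% of all tested genes. When single libraries were left out, 19 to 22 of these genes were higher and 7 to 9 lower. With all libraries the log2 fold changes of the 37 genes had a median of 0.53. With library totals alone the split was 10 higher and 16 lower, against 14.4% and 61.1% of all genes. Among 14 kinases and lipid signalling genes 8 rose and 2 fell, and with library totals 5 rose and 5 fell. The kinase Syk rose from 238 ± 76.2 to 1254 ± 112 CPM and the Src family kinase Lyn from 212 ± 35.7 to 1087 ± 74.5 CPM (SD, n = 4, edgeR adjusted p = 1.3e-05 and 1.5e-06). Its relative Fyn (log2 fold change -1.14, adjusted p = 4.3e-04) and the exchange factor Vav3 (-0.79, adjusted p = 0.0029) fell by edgeR.

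The genes listed for the Card9 complex, which include Traf6 and Map3k7 from outside it, were split as well. Among Card9, Bcl10 and Malt1 themselves only Card9 was called lower. Malt1, the protease of the complex, rose from 25.3 ± 6.45 to 112 ± 12.6 CPM (SD, n = 4, log2 fold change 2.14, edgeR adjusted p = 6.4e-06). Bcl10 (0.67, adjusted p = 1.8e-04) and Traf6 (0.50, adjusted p = 0.022) rose with TMM scaling, and stood at -0.00059 and -0.20 with library totals (edgeR, adjusted p = 1.00 and 0.19). The kinase gene Map3k7 fell (-0.46, edgeR, adjusted p = 0.0017). Card9 itself was lower at 19.2 ± 4.24 against 26.9 ± 5.04 CPM (SD, n = 4, log2 fold change -0.49, edgeR adjusted p = 0.049), a call that was lost when any 1 of the 8 libraries was left out (adjusted p from 0.055 to 0.22).

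Of 6 inhibitors of the pathway 5 rose and none fell with TMM scaling, where 30.3% of all genes rose. With the replicate block 4 of the 6 rose, Inpp5d (log2 fold change 0.27, edgeR, adjusted p = 0.041) losing its call at an adjusted p of 0.065, and with library totals 1 rose and 2 fell. The phosphatase Ubash3b (Sts-1) rose from 48.9 ± 2.85 to 225 ± 45.2 CPM (SD, n = 4, log2 fold change 2.20, edgeR adjusted p = 2.1e-06). The ubiquitin ligase Cblb (0.79, adjusted p = 8.2e-04) and the ITIM-binding phosphatase Ptpn6 (SHP-1, 0.53, adjusted p = 0.0073) rose with TMM scaling and were at 0.11 and -0.13 with library totals (edgeR, adjusted p = 0.48 and 0.46). Of 5 NFAT and Egr transcription factor genes, targets of the calcium branch of these receptors, none rose and 4 fell, where 33.8% of all genes fell. Egr2 (log2 fold change -1.84, adjusted p = 7.9e-04), Nfatc2 (-1.25, adjusted p = 3.1e-04) and Egr3 (-1.11, adjusted p = 0.031) had the largest falls by edgeR. The call for Egr3 was lost without vehicle replicate 1, 3 or 4 or LPS replicate 2 or 4 (edgeR, adjusted p from 0.060 to 0.10).

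The 4 genes for ligands and membrane partners of the receptors all rose with TMM scaling, where 30.3% of all genes rose. With library totals 2 of the 4 rose, Lgals9 and Anxa1, against 14.4% of all genes. Lgals9, whose product galectin-9 binds Dectin-1, rose from 208 ± 62.0 to 841 ± 172 CPM (SD, n = 4, log2 fold change 2.01, edgeR adjusted p = 4.8e-05). Anxa1, of the annexins that Dectin-1 reads on apoptotic cells, rose by 1.51 on the log2 scale (adjusted p = 4.3e-04), and Sap130, the nuclear ligand of Mincle, by 0.56 with TMM scaling (edgeR, adjusted p = 8.1e-04) while it stood at -0.12 with library totals (adjusted p = 0.31). Cd37, a tetraspanin that holds Dectin-1 at the membrane, stood at 0.58 (edgeR, adjusted p = 0.042), lost its call when any 1 of 6 libraries was left out, and was at -0.07 with library totals.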

How the data were processed

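RNA of 4 LPS and 4 vehicle cultures was sequenced. The authors aligned reads with GSNAP to GRCm38 and deposited a table of counts per Ensembl gene, from reads aligned at a unique position and not normalized. The labels name a stranded mRNA kit and the paper another kit and sequencer, and the annotation release and the strand setting of the counting are not given in the sources used here. Symbols and positions were taken from GENCODE vM21, in which 52489 of 52636 identifiers had a symbol, and counts without one made up 0.00512% of the total. All 8 columns were mapped to a sample.

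Counts were filtered with filterByExpr (minimum count 10, minimum total 15), scaled with TMM and tested with the two-sided quasi-likelihood test of edgeR 4.0.16 (limma 3.58.1, R 4.3.3), with group as the term. Benjamini-Hochberg adjustment covered the 13847 genes that passed the filter, with a threshold of 0.05. DESeq2 1.42.0 gave an alternative Wald test and size factors. Only the edgeR fit without a block was run on simulated counts, drawn from vehicle means with few genes changed, equally up and down. That simulation covers neither a change of most genes nor the choice of scaling. Tables and figures were made in Python 3.11.15 (numpy 2.4.6, pandas 2.3.3, matplotlib 3.10.9). Intervals and floors from counts cover counting error only, and a floor of 3 counts per library stands for a group at 0.

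Libraries of the same replicate number deviated together over 8382 genes (Pearson's r across genes 0.36, 0.18, 0.18 and 0.13 for numbers 1 to 4), every pair being above 0.1, so the number was used as a block in an alternative fit. Libraries of different numbers gave r of -0.20 to 0.15, the highest being vehicle 2 with LPS 4 at 0.15 and vehicle 4 with LPS 2 at 0.14, above the 0.13 of vehicle 4 with LPS 4. Members and gene lists were chosen with earlier results of these data known. Named genes are the 10 members, all adaptors and all genes listed for the Card9 complex, Traf6 and Map3k7 among them. From each other list the 3 largest rises and falls were named, among called genes whose mean log2 CPM was 0 or more. A gene that this rule selects is not reported here. Cd207, Clec2d in its list, Foxj2, Sap130 and Inpp5d fall outside that rule and were named after their values were seen. The scaling with library totals and the test of the replicate number were added after seeing the data.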

Additional observations from a re-analysis of the deposited data

Results flagged for a closer look

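In 8 of 83 groups of 4 libraries that were examined, 1 library stood apart from the other 3 by Dixon's criterion at 95% confidence, where chance alone gives about 1 in 20. Among the receptors these were Clec10a in vehicle replicate 3, with 12.9 CPM against 1.21 to 2.21 CPM in the others, and Clec12a in LPS replicate 3, with 285 CPM against 161 to 178 CPM. LPS replicate 3 also stood apart with 12.9 CPM of Card9 against 21.0 to 21.8 CPM, with 77.2 CPM of Traf6 against 47.1 to 50.2 CPM and with 1097 CPM of Lgals9 against 736 to 776 CPM. LPS replicate 1 had 977 CPM of Lyn against 1115 to 1141 CPM. Vehicle replicate 1 had 11.4 CPM of Egr2 against 4.93 to 5.93 CPM and 123 CPM of Cd37 against 89.8 to 90.4 CPM.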

How the results depend on the processing

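The calls of the 10 receptors depended on the scaling more than on any other choice tried. With library totals in place of TMM factors, an alternative added after seeing the data, 5 receptors were lower, with log2 fold changes of -0.87 for Clec4a3 and -0.75 for Clec5a among them, and Clec4d at 0.47 lost its call. Under the same scaling 10 signalling genes were higher and 16 lower, 2 genes around the receptors higher and 6 lower, and 1988 of all genes higher and 8457 lower, while Bcl10 stood at -0.00059, Traf6 at -0.20, Ptpn6 at -0.13, Cd37 at -0.068, Sap130 at -0.12 and Foxj2 at -0.29. With a required absolute log2 fold change of 1, Clec12a at -0.85 lost its call, 11 signalling genes were higher and 5 lower, 2 genes around the receptors were higher, and 2224 of all genes were higher and 2998 lower. Among other C-type lectin receptor genes 7 were lower by DESeq2, 8 without a filter on low counts and 1 when 10 counts were required in every library, a filter that removes genes low in one group. Of the genes around the receptors 8 were lower by DESeq2 and 8 without a filter, and 2 to 5 when single libraries were left out, the highest without LPS replicate 3. Per mean coding transcript, Clec4d held 27.4% of the summed level in vehicle and 34.3% in LPS libraries. The cause of the other differences was not tested. The replicate block changed the call of none of the 10 receptors: with it 3 were higher and 3 lower, as without it. Leaving out any 1 library also kept 3 higher and 3 lower. With 10 counts required in every library, Clec10a could not be tested. Clec10a, at 34 to 406 counts in vehicle libraries, is the receptor for which depth limits the estimate.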
